A study of Mus musculus with 3 samples.

Results

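Erythroid precursors are the nucleated cells of the red cell lineage that fill with hemoglobin before they lose their nucleus. They were examined among single cells of the mouse calvaria, the roof of the skull. A cell barcode counted as a member when Hbb-bs and Hba-a1, the major adult beta- and alpha-globin genes, together reached 100 unique molecular identifiers (UMIs) per 10000 of the cell, Car2 reached 5 and Ctsk stayed below 10. Car2 encodes carbonic anhydrase 2, which red cell precursors and osteoclasts share, and Ctsk encodes cathepsin K of osteoclasts. Of 23831 barcodes that passed the quality limits, 127 were members: 61 of 6577 in the control library, 61 of 8151 in the scratch-negative library and 5 of 9103 in the scratch-positive library. All mice were C57BL/6 and 8 weeks old. Control calvaria carried no tumour. In the other groups cells of HNM007, a line from a squamous cell carcinoma of the mouse, had been placed on the calvaria 1 week earlier and the tumour mass was cut away before the tissue was taken. In scratch-negative mice (labelled pre-invasive stage) the bone surface was left intact. In scratch-positive mice (labelled invasive stage) it was first scratched with a needle, which strips off the periosteum. Viable CD45+ and CD45– cells were pooled in equal numbers for loading. Each group had 1 library, so no test between groups exists. Every interval below is a 95% interval for counting error alone and does not include the spread between mice or between cells. Effects of the scratch, of the missing periosteum and of invasion cannot be told apart in the scratch-positive library, and differences between any 2 groups cannot be told apart from differences between any 2 mice or preparations.

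Red cells arise in the bone marrow from progenitors that first divide under erythropoietin and then, over a few last divisions, accumulate globin and heme, remodel their membrane and condense their nucleus. The transcription factors GATA1 and KLF1 drive this program. KLF1 binds CACCC motifs and GATA1 binds GATA motifs in the promoters and enhancers of globin, heme and membrane genes. The flat bones of the skull hold marrow, and that marrow is a site of blood formation in the adult mouse.

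The libraries differed in depth and in makeup. Totals were 100089008 UMIs in control, 167623741 in scratch-negative and 395654008 in scratch-positive, with medians of 9078, 11817 and 38658 UMIs per kept barcode. A UMI of Ptprc, which encodes CD45, was found in 89.6%, 84.6% and 49.8% of kept barcodes. The members themselves were of like depth in the first and second library, with medians of 28595 and 28734 UMIs, and shallower in scratch-positive, with 16379. Between 16 and 30 barcode sequences were shared by each pair of libraries, and 0 of these were members.

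The members made up 0.927% of kept barcodes in control (0.710 to 1.19), 0.748% in scratch-negative (0.573 to 0.960) and 0.0549% in scratch-positive (0.0178 to 0.128). The control and scratch-negative intervals overlap, and the scratch-positive share lay below both. The pooling by CD45 bears on these shares. Of barcodes without a Ptprc UMI, members were 48 of 682 (7.04%, 5.23 to 9.22) in control, 48 of 1256 (3.82%, 2.83 to 5.04) in scratch-negative and 4 of 4566 (0.0876%, 0.0239 to 0.224) in scratch-positive. On that denominator the 3 intervals do not overlap and the order is control, scratch-negative, scratch-positive. Carcinoma cells are themselves without CD45: carcinoma keratins and other carcinoma markers, 8 genes summed, stood at 5.33, 183 and 1900 UMIs per 1000000 in the barcodes that were not members. Fibroblast and osteoblast markers, 9 genes summed, stood at 1457, 7825 and 1458 in the same barcodes, so between control and scratch-negative they rose by more UMIs than the carcinoma markers. How far these shifts set the shares was not tested. The gene minimum also bears on the control share: 48 control barcodes with the globin level of members fell below 500 genes, against 5 and 2 in the other libraries.

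Because the rule used globin, Car2 and Ctsk, the levels of these genes describe the members and are no finding. Just inside the limit, the 3 lowest control members had 100.2, 102 and 103 globin UMIs per 10000, and the 3 lowest scratch-negative members had 109, 113 and 116. Just outside it, the 3 nearest barcodes had 99.7, 98.0 and 98.0 in control and 99.5, 97.4 and 96.3 in scratch-negative. The cells just outside looked erythroid by other genes, with 13 to 33 UMIs of Rhd in control and 14 to 40 in scratch-negative. Of the 3 control cells just inside, 2 had 998 and 968 UMIs in all and 0 of Rhd and Klf1. In control, 7 members held fewer than 2000 UMIs, against 0 in both other libraries, and 4 of these 7 had no UMI of Rhd or Klf1.

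The markers matched the label. UMIs of all members of a library were summed and divided by the summed non-globin UMIs, and the result is given as CPM (UMIs per 1000000 non-globin UMIs). Rhd, which encodes the red cell Rh antigen, stood at 704 CPM in control, 710 in scratch-negative and 700 in scratch-positive members, against 31.0, 19.0 and 0.777 in the other barcodes of those libraries. Klf1 stood at 284, 287 and 337 CPM, against 22.4, 13.96 and 0.554. Both were nearly equal in the members of the 3 libraries. Car1, an early erythroid carbonic anhydrase, stood at 1518, 1086 and 1199 CPM, against 283, 145 and 2.89. With every cell thinned to 2000 UMIs, Rhd was detected in 75.9% of the 54 control members deep enough (unthinned 88.5%) and in 78.7% of the 61 scratch-negative members (unthinned 100%). In barcodes rich in S100a8 and S100a9, which encode neutrophil calprotectin, the thinned share was 0.179% and 0.155%, at median depths of 9430.5 and 11505 UMIs before thinning. Ptprc showed the reverse, with 1.85% and 4.92% of members against 61.8% and 55.4% of those barcodes.

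**Figure D1:**
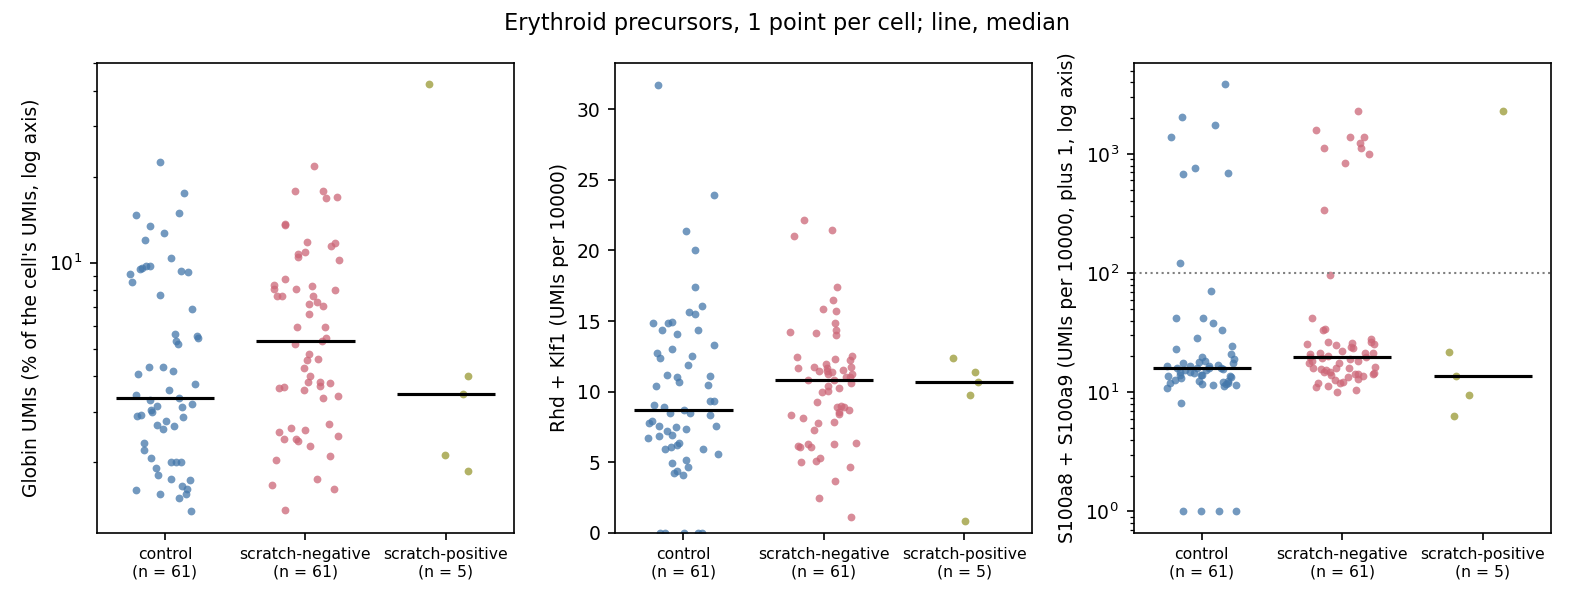
Each point is 1 erythroid precursor of the control, scratch-negative or scratch-positive library, and black lines are medians. The panels show globin UMIs as a percentage of the cell's UMIs (log axis), Rhd plus Klf1 UMIs per 10000, and S100a8 plus S100a9 UMIs per 10000 with 1 added (log axis, dotted line at 100 plus 1). The median globin percentage was 3.36 in control, 5.30 in scratch-negative and 3.46 in scratch-positive, and 8, 10 and 1 cells lie above the S100 line.

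The globin limit took only a part of the barcodes that carried Rhd and Klf1. Barcodes with Rhd plus Klf1 at 5 or more UMIs per 10000, whatever their globin, numbered 166, 152 and 9 (2.52%, 1.86% and 0.0989% of kept barcodes), and 51, 57 and 4 of them were members. This wider set was defined after the data had been seen. The 115 and 95 such barcodes outside the members in control and scratch-negative had a median globin of 0.134% and 0.105% of their UMIs. Their Car1 was higher than that of members, with medians of 17.3 and 14 UMIs per 10000 against 12.4 and 7.27. At the high end of globin, 0 of 61 members in both large groups had 50% globin or more. With a limit of 3 cells this allows a share of up to 4.92% of members. The gene minimum took part in this: among barcodes below 500 genes with the globin level of members, 4 in control, 1 in scratch-negative and 1 in scratch-positive had 50% or more. The 0 therefore holds only for barcodes above that minimum. Globin reached at most 22.6% of a control member's UMIs and 21.9% of a scratch-negative member's.

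The promoters of Hbb-bs, Alas2 and Klf1 are shown because results below turn on globin, on Alas2 and on the factor KLF1. They are the 120 bases before the start of each gene in RefSeq on GRCm38.p6, given 5′ to 3′ on the gene's strand. Capitals mark CACCC or its reverse complement GGGTG, the core of a KLF1 motif, and GATAA or its reverse complement TTATC, the core of a GATA1 motif. Hbb-bs is at chr7:103827929-103828048 on the minus strand, Alas2 at chrX:150547297-150547416 on the plus strand and Klf1 at chr8:84901862-84901981 on the plus strand.
Hbb-bs: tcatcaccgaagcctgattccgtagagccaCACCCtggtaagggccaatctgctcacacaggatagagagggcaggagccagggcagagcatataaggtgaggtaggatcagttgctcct
Alas2: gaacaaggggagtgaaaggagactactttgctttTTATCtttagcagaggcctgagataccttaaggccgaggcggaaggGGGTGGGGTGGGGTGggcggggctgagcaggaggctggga
Klf1: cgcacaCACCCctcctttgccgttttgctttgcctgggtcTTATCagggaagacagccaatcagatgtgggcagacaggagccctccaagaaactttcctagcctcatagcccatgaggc
These letters held 1 match in Hbb-bs, 4 in Alas2 and 2 in Klf1. In the same window, CACCC or GGGTG occurred in 31.3% of all 27025 promoters, in 14 of 20 promoters of the red cell membrane list (70.0%), in 10 of 17 of the erythroid transcription factors (58.8%) and in 5 of 12 of the heme list (41.7%). GATAA or TTATC occurred in 10.7% of all promoters, and in 5 of 20 (25%), 4 of 17 (23.5%) and 2 of 12 (16.7%) of those lists. The lists hold 26, 19 and 14 genes, and promoters were on record for only 20, 17 and 12 of them. Both motifs were searched on both strands, the last letter of one can serve as the first of the other, and a match is a description of the letters only.

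The genes that stood farthest above the other barcodes of the control library, among those found in at least 50% of members, included several known erythroid genes. Alas2, the first enzyme of heme synthesis in red cells, was at 81.5 CPM against 0.184, or 442-fold. Slc4a1, the band 3 anion exchanger, was at 238 against 0.697 CPM, or 342-fold. Next came Tac2 (90.7-fold), Trim10 (80.2-fold), Sox6 (68.2-fold), Adam33 (67.3-fold), Epb42 (66.2-fold), Pkhd1l1 (65.1-fold), Dmtn (62.5-fold) and Btnl10 (52.7-fold). Sptb, beta spectrin, stood 38.7-fold above. Trim10, Sox6, Epb42 and Dmtn are known from red cell precursors as well, Epb42 and Dmtn encoding proteins of the membrane skeleton. Since the members were chosen by erythroid genes, this ranking carries no test.

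Many defining markers of other cell types were at 0, and their lists as a whole were below the other barcodes in most cases. Gata2, a factor of early progenitors, had 0 UMIs in all members, and Kit, the receptor of those progenitors, had 7, 2 and 0. The T cell genes Cd3e, Cd3g and Trac were at 0 in the 3 libraries, as were the endothelial genes Pecam1, Cdh5, Kdr, Emcn and Tie1 and the megakaryocyte genes Gp6 and Gp1bb. Of 7 T and NK genes, 2, 4 and 0 had a UMI in members of the 3 libraries, and of 9 megakaryocyte genes 4, 5 and 1. The megakaryocyte genes summed to 17.3, 47.0 and 13.5 CPM, near the 16.6 and 50.1 of the other barcodes in control and scratch-negative. Gp9, a platelet glycoprotein gene, was at 15.4, 21.3 and 13.5 CPM, above the 1.40 and 0.859 of those barcodes, and its ratio of 1.38 over all members became 1.84 and a call among the S100- and collagen-low members defined below. Pf4, platelet factor 4, was called higher at 1 and 44 UMIs, with 72.7% of the latter in 1 cell. The 9 monocyte and macrophage genes summed to 532, 935 and 485 CPM, against 8176, 5820 and 1484, and most of it was Lyz2, lysozyme, at 520, 873 and 485. The 7 B lineage genes summed to 52.5, 7.64 and 0 CPM, against 796, 572 and 47.0. The 9 fibroblast and osteoblast genes summed to 50.6, 1549 and 67.4 CPM, against 1457, 7825 and 1458. Acp5, an acid phosphatase best known from osteoclasts, was at 213, 242 and 229 CPM, while Atp6v0d2, Dcstamp, Calcr and Oscar of osteoclasts were at 0 in the 3 libraries. Mmp9, which neutrophils also express, was at 66.1, 87.9 and 175 CPM, the last from 1 cell.

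Neutrophil genes had the highest sums of these lists. The 11 neutrophil markers summed to 26105 CPM in control members, 51746 in scratch-negative and 44452 in scratch-positive, against 368489, 300536 and 39805 in the other barcodes. They were concentrated in few cells. S100a8 plus S100a9 reached 100 UMIs per 10000 in 8 of 61 control, 10 of 61 scratch-negative and 1 of 5 scratch-positive members. Collagens (Col1a1, Col1a2 and Col3a1) reached 10 per 10000 in 3, 2 and 0. The 11 control and 10 scratch-negative members with either held 14.4% and 26.0% of all non-globin UMIs, 92.9% and 96.5% of the neutrophil marker UMIs, and 57.3% and 94.7% of the fibroblast marker UMIs. Whether these barcodes hold more than 1 cell was not tested beyond a doublet score, by whose ranking 1 control and 3 scratch-negative members would be removed. Comparisons below cover all members, and calls that are lost among the 50 control and 51 scratch-negative members that remain without them, called the S100- and collagen-low members, are named beside the result. That split was chosen after the data had been seen.

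Members differed among themselves in how far hemoglobinization had gone. They were divided into those with under 2.5%, 2.5 to 5%, and 5% or more globin, which gave 17, 21 and 23 cells in control and 11, 18 and 32 in scratch-negative. The share at 5% or more was 37.7% (25.6 to 51) in control and 52.5% (39.3 to 65.4) in scratch-negative, and these intervals overlap. Slc4a1 stood at 65.2, 201 and 438 CPM across the 3 ranges in control and at 95.5, 252 and 427 in scratch-negative. Alas2 stood at 31.5, 38.9 and 177 CPM in control and at 45.4, 82.0 and 230 in scratch-negative. Both genes were thus several-fold higher in the range richest in globin, in both libraries. Myb, a factor of dividing progenitors that red cell precursors turn off, ran the other way, from 42.1 to 11.3 and 5.69 CPM in control and from 16.7 to 11.5 and 2.79 in scratch-negative. In scratch-negative those levels rest on 7, 8 and 2 UMIs, and 85.7% of the first came from 1 cell. Rhd differed less steeply, from 610 to 883 CPM in control and from 630 to 867 in scratch-negative. Globin entered the rule, so these trends describe the members.

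**Figure D2:**
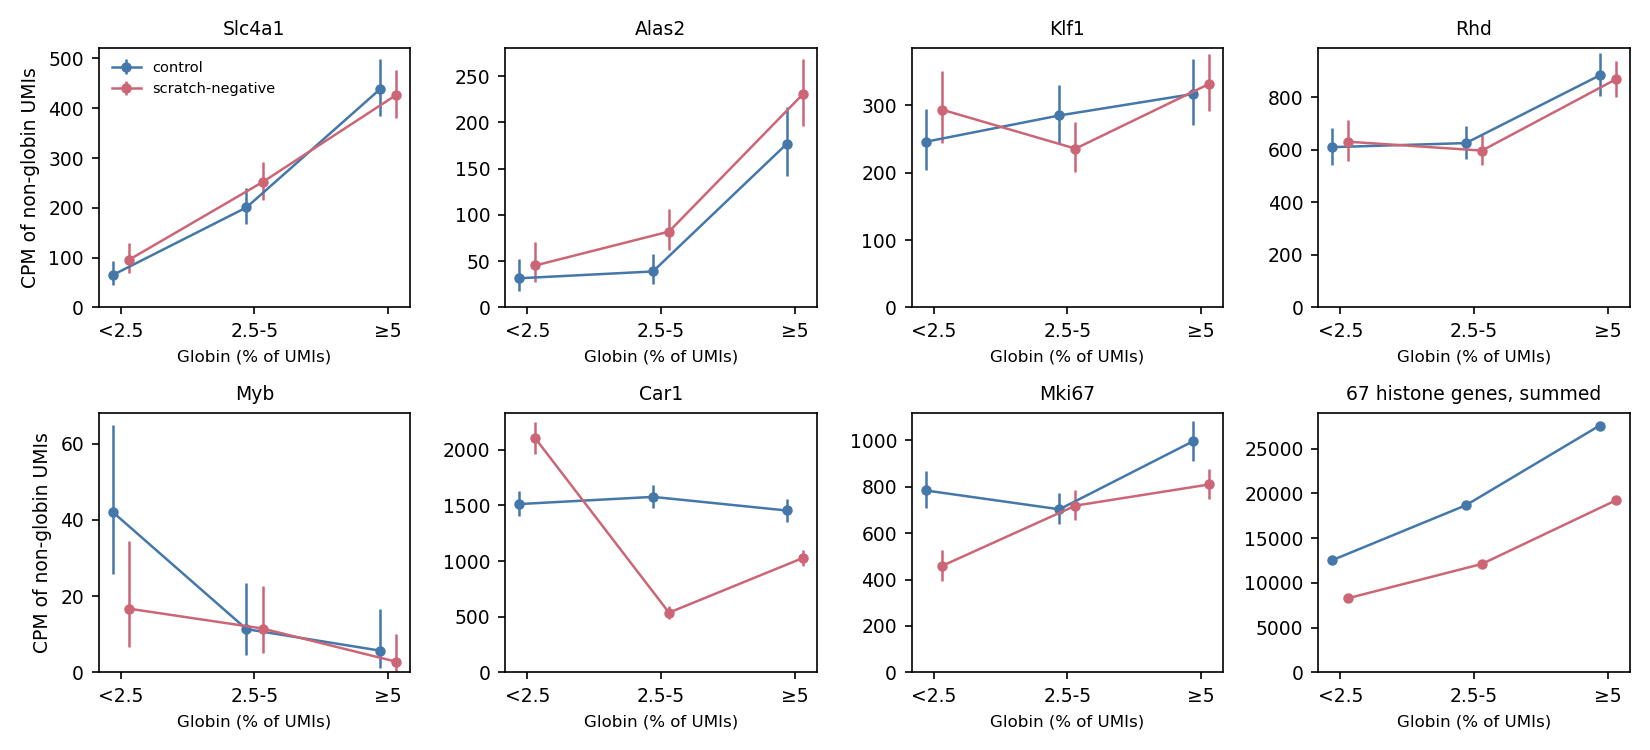
Levels (CPM of non-globin UMIs) of 7 genes and of the sum of 67 histone genes in members divided by their globin percentage, in control (blue) and scratch-negative (red), with 95% Poisson intervals. Slc4a1 and Alas2 are highest and Myb lowest in the range with most globin, and the histone sum is lower in scratch-negative in all 3 ranges.

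Cell by cell, the share of non-globin UMIs from 25 proliferation genes was higher in cells with more globin, with a Spearman rho of 0.44 over the 61 control and 0.49 over the 61 scratch-negative members. The share from replication-dependent histone genes gave 0.45 and 0.32, Rhd plus Klf1 gave 0.32 and 0.26, and Car1 gave 0.04 and −0.10. These are descriptions over cells of 1 library each, and both shares have the cell's non-globin UMIs as denominator, which globin itself reduces. The UMI total was lower in cells with more globin, with a rho of −0.11 and −0.52 (−0.36 and −0.48 among S100- and collagen-low members).

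Scratch-negative was compared with control gene by gene. A gene was tested for size when it had 20 UMIs or more in the 2 groups of members together. It counted as higher or lower when the CPM differed 1.5-fold or more and the counting interval of the ratio did not include 1. Of 7355 genes, 456 were higher (6.20%) and 296 lower (4.02%), and the median log2 ratio was −0.03. The counts of each list below are to be read beside these shares. Among S100- and collagen-low members, 113 of 6535 were higher (1.73%) and 292 lower (4.47%). Of the 456 higher genes, 63 were also higher without those members (13.8%, and 55.8% of the 113) and 13 were then lower. Of the 296 lower genes, 193 stayed lower (65.2%, and 66.1% of the 292). Without those cells 197 of the 456 higher and 285 of the 296 lower genes still had the 20 UMIs needed, so most of the lost higher calls were of genes that could no longer be tested. Over all Rhd and Klf1 barcodes, members included, 3.29% of 9331 genes were higher and 2.60% lower.

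**Figure D3:**
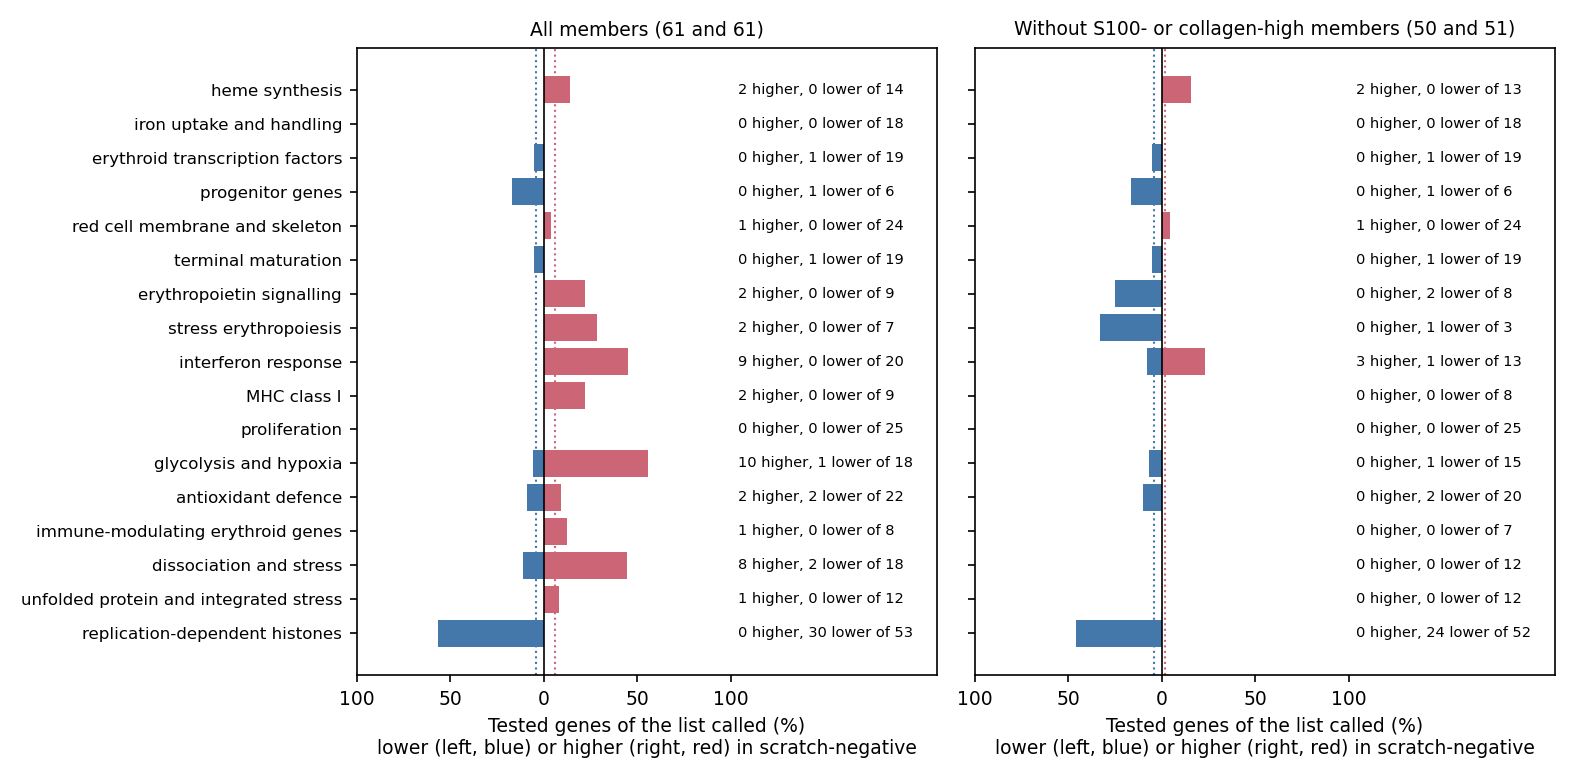
Percentage of the tested genes of each list that were higher (red, right) or lower (blue, left) in scratch-negative than in control members, for all members and without the S100- or collagen-high ones, with the counts beside the bars. Dotted lines give the same percentages over all genes: 6.20% and 4.02% for all members, 1.73% and 4.47% without those cells. The interferon, glycolysis and dissociation lists lose most of their higher genes between the panels, and the histone list keeps 24 lower genes of 52.

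The globin genes, which the rule used in part, were close in both libraries. As UMIs per 1000000 of all UMIs, Hbb-bs stood at 20343 in control, 24847 in scratch-negative and 39941 in scratch-positive members, and Hbb-bt, the neighbouring beta-globin, at 11863, 12751 and 19663. Hba-a1 stood at 13506, 15286 and 17079 and Hba-a2 at 3320, 3527 and 9832. None differed 1.5-fold between control and scratch-negative, and the ratios ran from 1.06 for Hba-a2 to 1.22 for Hbb-bs. The paired alpha and the paired beta genes are nearly identical in sequence, so the split of UMIs within a pair is uncertain. Embryonic globins were absent but for stray UMIs: Hbb-y had 2, 1 and 0, Hba-x had 1, 4 and 0, and Hbb-bh1 had 0 in the 3 libraries.

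Heme synthesis was close to equal except at its first step. Of 14 genes tested, 2 were higher and 0 lower, with a median log2 ratio of 0.07 (0.21, with 2 of 13 higher, among S100- and collagen-low members). Alas2 had 132 UMIs in control, 241 in scratch-negative and 13 in scratch-positive members, or 81.5, 132 and 175 CPM. It was 1.61-fold higher in scratch-negative than in control (1.30 to 2.01), and 1.81-fold among S100- and collagen-low members. In each globin range its scratch-negative level was above its control level, also among S100- and collagen-low members. The counting intervals of the libraries overlap in the lowest and highest range, and among S100- and collagen-low members in every range. The other was Alas1, the form of the same enzyme found in all tissues, at 7, 20 and 0 UMIs. Its ratio of 2.53 (1.03 to 7.07) came down to 2.05 without the S100- or collagen-high cells and was then too uncertain to count. The middle and late steps did not differ by 1.5-fold: Alad stood at 541, 532 and 431 CPM, Cpox at 541, 484 and 458, and Fech, which inserts the iron, at 156, 134 and 189.

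Iron genes gave 0 higher and 0 lower of 18 tested, with a median log2 ratio of −0.02, and the same counts and a median of 0.07 among S100- and collagen-low members. Tfrc, the transferrin receptor that brings iron into the cell, stood at 377 CPM in control, 366 in scratch-negative and 404 in scratch-positive. Slc25a37, mitoferrin, which carries iron into mitochondria, stood at 223, 218 and 283. Fth1, ferritin heavy chain, was among the most abundant messages, at 9198, 10193 and 12837 CPM. Levels of these genes thus lay within 1.2-fold of each other in control and scratch-negative.

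The erythroid transcription factors were likewise level, with 0 higher and 1 lower of 19 and a median log2 ratio of −0.17 (−0.06 among S100- and collagen-low members). With 4.02% of all genes lower, 1 of 19 is near the share of all genes. Gata1 stood at 103, 96.1 and 108 CPM and Klf1 at 284, 287 and 337. Gfi1b, a repressor that works with GATA1 in red cell and platelet precursors, was the lower gene. It had 122, 84 and 5 UMIs, or 75.3, 45.9 and 67.4 CPM, which is 1.64-fold lower in scratch-negative than in control (1.23 to 2.20). Without the S100- or collagen-high members the level was 78.6 against 47.2 CPM. Klf3 stood at 75.3 and 106 CPM, a ratio of 1.41 (1.12 to 1.78) that is below the limit of 1.5. Among 6 progenitor genes tested, Myb was the lower gene and 0 were higher. Myb had 30, 17 and 0 UMIs, or 18.5, 9.28 and 0 CPM, and was 1.995-fold lower in scratch-negative than in control (1.07 to 3.86). Of its UMIs, 23.3% and 35.3% lay in 1 cell of each library. It was 2.20-fold lower among S100- and collagen-low members. From the lowest to the highest globin range, Myb had 20, 7 and 3 UMIs in control and 7, 8 and 2 in scratch-negative. The difference thus lay mainly in the lowest range, and the middle range stood at 11.3 and 11.5 CPM.

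Genes of the red cell membrane and its skeleton gave 1 higher and 0 lower of 24, with a median log2 ratio of −0.03. With 6.20% of all genes higher and 4.02% lower, these counts do not stand out from the share of all genes. The higher gene was Tmod1, tropomodulin, which caps the short actin filaments of the skeleton. It had 22, 43 and 3 UMIs, or 13.6, 23.5 and 40.4 CPM, a ratio of 1.73 (1.01 to 3.03), and 1.93 among S100- and collagen-low members. Slc4a1 stood at 238, 284 and 202 CPM (1.19, 1.04 to 1.37) and Epb41, protein 4.1, at 83.3, 59.0 and 80.8 (0.71, 0.54 to 0.92). Both intervals exclude equality, but the ratios are under 1.5-fold. Dstn, an actin-severing factor of all cells, turned with the choice of members, from a ratio of 1.36 over all to 0.56 among the S100- and collagen-low ones.

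**Figure D4:**
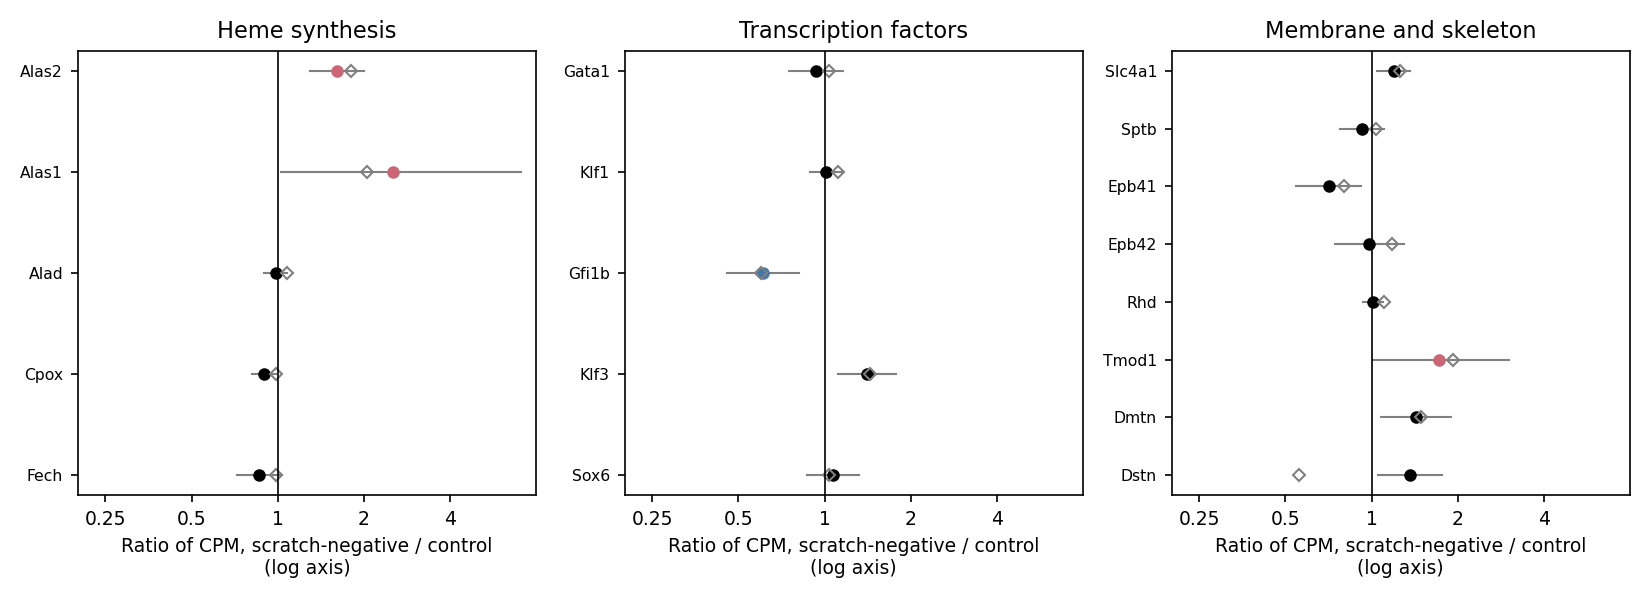
Ratio of CPM in scratch-negative over control members (log axis) for the genes of 3 lists that the text names, with 95% counting intervals. Red points were higher, blue points lower and black points neither by the rule of 1.5-fold, and open diamonds give the ratio without S100- or collagen-high members. Alas2, Alas1 and Tmod1 lie to the right, Gfi1b to the left, and the remaining genes were not called.

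Of the carbonic anhydrases 2 could be tested, and 0 of 2 were called. Car1 stood at 1518, 1086 and 1199 CPM in control, scratch-negative and scratch-positive, a ratio of 0.72 (0.67 to 0.76), with 19.6% of the scratch-negative UMIs in 1 cell. Among S100- and collagen-low members the ratio was 0.87. In these members Car1 was at 2330 CPM below 2.5% globin, 872 between 2.5 and 5%, and 1062 above in scratch-negative, with 44.7% of the first in 1 cell, and at 1547, 1675 and 1489 in control. Over all members the middle scratch-negative range was at 536 CPM, and S100- or collagen-high cells held 49.2% of its non-globin UMIs. Car2 stood at 4371, 3861 and 4647 CPM, with a ratio of 0.99 among S100- and collagen-low members, and its minimum in the rule limits what this shows. The other 14 carbonic anhydrases had too few UMIs to be tested.

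Of 19 terminal maturation genes, 0 were higher and 1 was lower, with a median log2 ratio of 0.07. This is near the share of all genes that were lower, 4.02%. The lower one was Bpgm, which makes the bisphosphoglycerate that lowers the oxygen affinity of hemoglobin. It had 63, 44 and 26 UMIs, or 38.9, 24.0 and 350 CPM, and was 1.62-fold lower in scratch-negative than in control (1.08 to 2.44), and 1.64-fold among S100- and collagen-low members. Hemgn, hemogen, stood at 601, 503 and 566. Bnip3l, a receptor for the clearance of mitochondria, stood at 161, 164 and 296.

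Erythropoietin signalling gave 2 higher and 0 lower of 9 over all members. The 2 were Pim1, a survival kinase induced by cytokines, with a ratio of 1.71, and Osm, oncostatin M, with 5.38. Neither counted among S100- and collagen-low members, where instead Stat5a and Lyn were lower (2 of 8 tested, at 18 against 6 and 17 against 3 UMIs). Epor, the erythropoietin receptor itself, stood at 113, 85.7 and 53.9 CPM, a ratio of 0.76 (0.61 to 0.94). In the stress erythropoiesis list, Id1 and Hif1a were higher of 7 tested. Id1, a target of BMP signals, stood at 4.32 against 16.4 CPM over all members and at 0.721 against 0.738 without the S100- or collagen-high ones. The last 2 levels are 1 UMI in each library, too few to be tested. Hif1a, the hypoxia-inducible factor, stood at 5.56 against 27.8 and then at 5.05 against 6.64. Kit and Gdf15 had too few UMIs to be tested.

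Interferon-response genes had a median ratio well above that of all genes over all members. Of 20 tested, 9 were higher and 0 lower, with a median log2 ratio of 0.83. S100- or collagen-high members, however, held 30.3% of the UMIs of this list in control and 58.7% in scratch-negative. Without them, 3 of 13 were higher and 1 lower, and the median was 0.46. Isg15, an interferon-induced protein that is attached to others like ubiquitin, was higher in both cases. It had 83, 278 and 17 UMIs, or 51.2, 152 and 229 CPM, a ratio of 2.96 (2.31 to 3.83), and without those members it stood at 28.9 against 102 CPM, a ratio of 3.53. A single cell held 45.8% of its control UMIs, another 30.2% of its scratch-negative UMIs and another 82.4% of its scratch-positive UMIs. Ifi35 and Irgm1 were the other higher genes among S100- and collagen-low members, with ratios of 1.69 and 1.99. Ifi27l2a, a small interferon-induced membrane protein, turned over: its ratio was 2.65 over all members and 0.13 without. Ifitm3, which blocks virus entry, went from 1.98 to 1.18. The other barcodes of these libraries differed the same way, with 21 of 25 genes higher, a median log2 ratio of 1.15 and a ratio of 3.15 for Isg15, against 27.5% of all genes higher there and 6.90% lower. MHC class I genes gave 2 higher and 0 lower of 9 over all members and 0 of 8 without. H2-K1 stood at 108, 148 and 121 CPM and B2m, the light chain, at 530, 626 and 620.

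Glycolysis and hypoxia genes showed 10 higher and 1 lower of 18 over all members, but 0 higher and 1 lower of 15 without the S100- or collagen-high members, which held 54.1% of the list's scratch-negative UMIs. Pkm, the muscle-type pyruvate kinase of most tissues, stood at 27.8 CPM in control and 113 in scratch-negative, and then at 8.66 and 8.85. Aldoa, aldolase A, went from a ratio of 2.003 to 1.33, and Pgk1 from 2.16 to 1.06. Pklr, the pyruvate kinase form of red cells and liver, was the lower gene in both cases. It had 54, 35 and 3 UMIs, or 33.3, 19.1 and 40.4 CPM, and was 1.74-fold lower in scratch-negative than in control (1.12 to 2.75). The red cell form of pyruvate kinase was thus lower in scratch-negative. Once those cells were left out, the general form rested on few UMIs in both libraries, too few to tell equality from a moderate difference.

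Antioxidant genes, which protect hemoglobin-laden cells, were mixed. Prdx2, the main peroxiredoxin of red cells, stood at 3675, 4080 and 3866 CPM, and Blvrb at 2864, 3316 and 3637. Sod1, the cytosolic superoxide dismutase, had 195, 117 and 9 UMIs, or 120, 63.9 and 121 CPM. It was 1.88-fold lower in scratch-negative than in control (1.49 to 2.39), and its level without S100- or collagen-high members was 132 against 66.4 CPM. Nfe2l2, the NRF2 factor of the oxidative stress response, had 176, 124 and 2 UMIs, or 109, 67.7 and 26.9 CPM, and was 1.61-fold lower (1.27 to 2.04). Gsr and Hmox1 were higher over all members only, with 2 of 22 genes of the list higher and 2 lower, and 0 and 2 of 20 without those cells. Immediate-early and heat shock genes of the dissociation list gave 8 higher and 2 lower of 18, then 0 and 0 of 12. Among 12 genes of the unfolded protein and integrated stress responses, Eif2ak2 alone was higher (1.56-fold, and not called among S100- and collagen-low members), and Eif2ak1, the heme-regulated kinase that matches globin synthesis to heme, stood at 79.6, 70.4 and 80.8 CPM.

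Proliferation genes gave no call. Of 25 genes, 0 were higher and 0 lower, and the median log2 ratio was 0.02 (0.07, with the same counts, among S100- and collagen-low members). Mki67 stood at 822, 695 and 552 CPM, Top2a, the topoisomerase of dividing cells, at 679, 541 and 727, and Pcna, the DNA polymerase clamp, at 406, 408 and 242. Summed over the list, proliferation genes took 8039, 7992 and 7476 CPM in control, scratch-negative and scratch-positive members, against 2092, 2117 and 2847 in the other barcodes. The members were thus rich in these messages in all 3 libraries.

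Replication-dependent histone genes gave the largest share of lower genes among the lists. These genes are read during DNA replication to package new chromatin, and their messages normally end in a stem-loop in place of a poly(A) tail, so libraries primed on poly(A) capture them only in part. The list was drawn up after the lower genes had been seen. Of 53 tested, 0 were higher and 30 lower, with a median log2 ratio of −0.75, and 51 had a ratio below 1. Among S100- and collagen-low members 24 of 52 were lower, with a median of −0.60. Summed, the 67 histone genes of the annotation took 19768 CPM in control, 14020 in scratch-negative and 8931 in scratch-positive members. The summed ratio of scratch-negative to control was 0.71 (0.70 to 0.72), and 0.78 without S100- or collagen-high members.

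Single histone genes differed unequally. Hist1h2an had 152, 47 and 2 UMIs, or 93.8, 25.7 and 26.9 CPM, and was 3.66-fold lower in scratch-negative than in control (2.62 to 5.19). Hist1h3c, with 410, 172 and 121 CPM, was 2.38-fold lower (2.08 to 2.73), and Hist2h2ac, with 356, 155 and 80.8 CPM, 2.29-fold lower (1.99 to 2.65). Hist1h2af was 3.22-fold, Hist1h2be 2.96-fold and Hist1h3i 2.64-fold lower. These 6 stayed lower among S100- and collagen-low members, by between 2.05-fold for Hist2h2ac and 3.48-fold for Hist1h2an. The most abundant ones differed less. Hist1h2ap stood at 5914 and 4915 CPM, 1.2-fold lower, Hist1h2ae at 3005 and 1982, 1.52-fold lower (1.39-fold and not called among S100- and collagen-low members), and Hist1h1b, a linker histone, at 2162 and 1586, 1.36-fold lower. Hist1h4i stood at 196 CPM in both. Genes of this family resemble each other closely, so the division of UMIs among neighbouring copies is uncertain, whereas the sum depends on it less.

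The 3 named first are shown with the 120 bases before their RefSeq starts on GRCm38.p6, all on the minus strand: Hist1h2an (H2ac22) at chr13:21787249-21787368, Hist1h3c (H3c3) at chr13:23745522-23745641 and Hist2h2ac (H2ac20) at chr3:96220881-96221000. Capitals mark CCAAT or its reverse complement ATTGG, the box bound by NF-Y that many histone promoters carry.
Hist1h2an: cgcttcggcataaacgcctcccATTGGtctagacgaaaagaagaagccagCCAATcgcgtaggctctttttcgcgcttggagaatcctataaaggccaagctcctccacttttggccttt
Hist1h3c: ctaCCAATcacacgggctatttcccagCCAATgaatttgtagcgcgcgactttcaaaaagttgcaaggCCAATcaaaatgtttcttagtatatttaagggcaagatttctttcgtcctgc
Hist2h2ac: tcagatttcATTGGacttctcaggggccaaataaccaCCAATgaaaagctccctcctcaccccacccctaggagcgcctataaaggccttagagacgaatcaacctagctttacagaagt
They held 2, 3 and 2 matches. In the same window, searched on both strands, the motif occurred in 22.1% of all 27025 promoters. Promoters were on record for 28 of the 30 lower histone genes and for 20 of the 23 that were tested and not called. The motif occurred in 22 of the 28 (78.6%) and in 16 of the 20 (80.0%). Lower and uncalled histone genes thus carried it about equally often. CACCC or GGGTG occurred in 7 of the 28 (25%) and 0 of the 20, against 31.3% of all promoters.

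**Figure D5:**
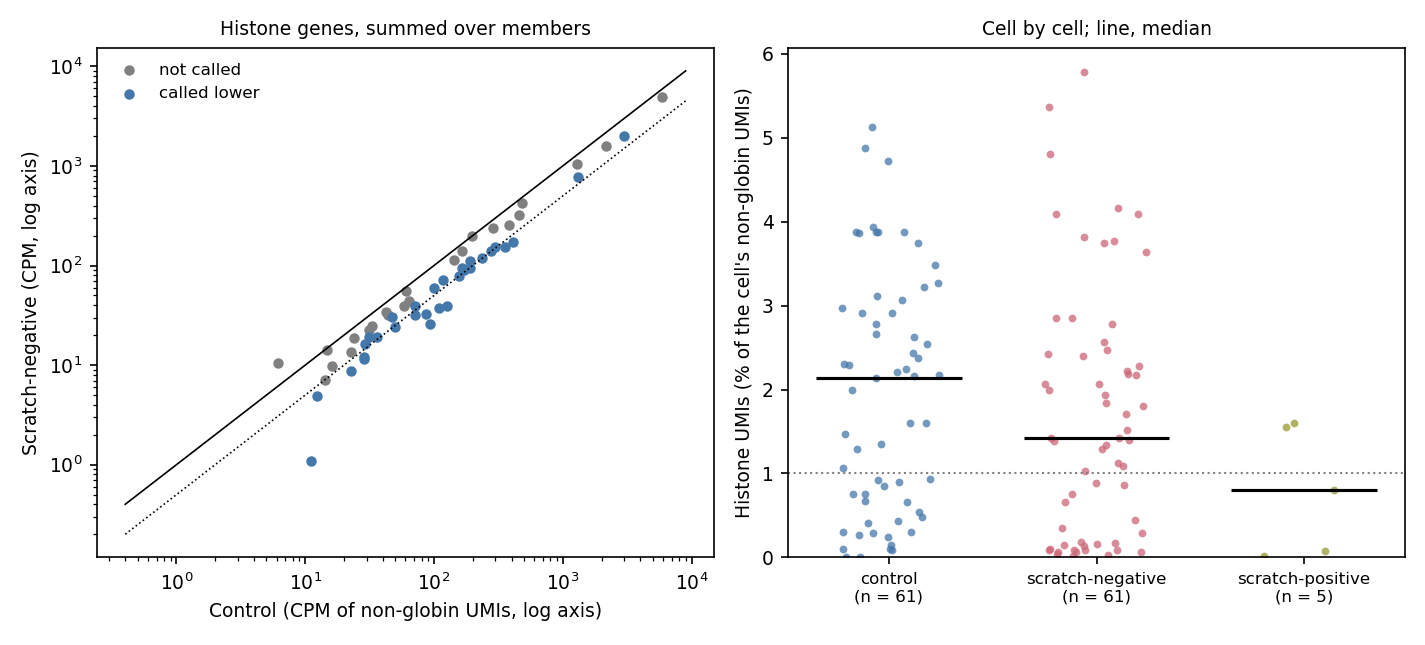
Left, level of each tested histone gene (CPM of non-globin UMIs, log axes) in control against scratch-negative members, with blue points lower by the rule of 1.5-fold, a solid line at equality and a dotted line at 2-fold lower. Right, histone UMIs as a percentage of each member's non-globin UMIs, with medians as black lines and a dotted line at 1%. Most genes lie between the 2 lines, and 38 of 61 cells lie above 1% in both control and scratch-negative.

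Cells rich in histone messages were about as common in both libraries, and the level in them was lower in scratch-negative. Histone messages took 1% or more of the non-globin UMIs in 38 of 61 control members (62.3%, 49.0 to 74.4) and in 38 of 61 scratch-negative members, and in 2 of 5 scratch-positive ones. Within those cells the median was 2.72%, 2.20% and 1.58%, and in the remaining cells 0.407%, 0.135% and 0.0809%. Among S100- and collagen-low members they were 33 of 50 (66%) and 31 of 51 (60.8%), with medians of 2.67% and 2.42%. The sum was lower in scratch-negative in each globin range: 12536 against 8291 CPM below 2.5% globin, 18677 against 12116 between 2.5 and 5%, and 27574 against 19210 above. Among S100- and collagen-low members these were 12599 against 8747, 19342 against 15028, and 28047 against 19608 CPM. Cells outside the members differed in the same direction. Other barcodes that were cycling by Mki67 plus Top2a at 5 or more UMIs per 10000, 1077 and 1430 of them, had 30 of 61 histone genes lower and a summed ratio of 0.77, where 3.55% of all genes were lower and 19.2% higher. Over all other barcodes 44 of 62 were lower and the ratio was 0.71. Proliferation genes in these sets gave 0 higher and 0 lower of 25.

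Genes named by a rule of size (given with the methods), with a level in members at or above that of the other barcodes, extend the picture beyond the lists. Gm867, a protein-coding gene without a descriptive name at chr10:75937723-75940672 on GRCm38 (minus strand), had 34, 98 and 1 UMIs, or 21.0, 53.5 and 13.5 CPM, against 0.277 and 0.212 in the other control and scratch-negative barcodes. It was 2.55-fold higher in scratch-negative than in control members (1.71 to 3.89) and 3.38-fold among S100- and collagen-low ones. In both libraries it was thus near 0 outside the members. Cdk5rap1, which modifies mitochondrial tRNAs, had 9 and 38 UMIs, a ratio of 3.73, and 3.64 among S100- and collagen-low members. Plek2, pleckstrin 2, which takes part in the actin cytoskeleton of red cell precursors, had 2 and 19 UMIs in 2 and 13 cells, a ratio of 8.40 with a wide interval (2.03 to 74.4). Dhx58, an interferon-induced RNA helicase, had 3 and 20 UMIs. Other higher genes of this rule were Tsc22d1 (1.97-fold), Sp2 (2.43-fold), Fam110c (3.39-fold), Zc3hc1 (2.52-fold) and Gm10076 (1.51-fold), the last a short single locus of 2472 and 4222 UMIs whose reads may come from related copies. Of these, Plek2 and Dhx58 were no longer called among S100- and collagen-low members, with 2 and 16 and with 1 and 11 UMIs. The other barcodes had scratch-negative to control ratios of 90.4 for Plek2, 4.19 for Fam110c and 4.09 for Tsc22d1. Cdk5rap1 had 2.39 there, Gm10076 1.96, Dhx58 1.28, Zc3hc1 1.19, Sp2 0.962 and Gm867 0.766. Several of these genes thus differed in the same direction outside the members, and how far this bears on the members was not tested.

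Outside the histones, the lower genes by the same rule were Pigu, Zfp512 and Dennd1a. Zfp512 and Dennd1a stayed lower among S100- and collagen-low members, 2.86-fold and 3.91-fold, while Pigu, at 18 and 1 UMIs, and Hist1h2bk, at 15 and 1, no longer had the 20 UMIs needed for a call. Pigu, a subunit of the enzyme that attaches GPI anchors to proteins, had 19 and 2 UMIs in 12 and 2 cells, a 10.7-fold difference with an interval from 2.59 to 95.1. Zfp512, a zinc finger protein, had 42 and 14 UMIs, with 54.8% of the control UMIs in 1 cell. Dennd1a, a regulator of endocytic traffic, had 32 and 10 UMIs, 3.62-fold lower (1.74 to 8.25), in 24 and 9 cells. Hist1h2bk completed the 10 with 18 and 2 UMIs.

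Other called genes had a level in members below that of the other barcodes, and most of those higher were of this kind. Of 379 higher genes found in at least 10% of scratch-negative members, 60 were at or above the level of the other barcodes and 319 below, whereas of 290 lower genes found in at least 10% of control members 264 were at or above and 26 below. The most extreme higher ones were collagens, with Col1a1 at 20 and 1287 UMIs, Col1a2 at 8 and 650 and Col3a1 at 12 and 760. A single scratch-negative cell held 86.1%, 86.0% and 93.3% of these UMIs. Timp1, a metalloproteinase inhibitor, had 0 and 131 UMIs, with 83.2% in 1 cell. Cd74, the MHC class II invariant chain, had 0 and 88 UMIs, with 65.9% in 1 cell. Without S100- or collagen-high members Timp1 and Cd74 were at 0 and 15 and 0 and 5 UMIs, too few for a call. The collagens stayed higher at 12 and 64, 5 and 27, and 1 and 38 UMIs. These are scratch-negative to control ratios of 5.46 for Col1a1, 5.52 for Col1a2 and 38.9 for Col3a1. In the other barcodes the ratios were 5.53, 4.71 and 19.6. The collagens thus differed in the same direction outside the members, and how far this bears on the members was not tested. The lower ones were Arrdc3 (22 and 7 UMIs), Prr14 (29 and 11), Lars2 (331 and 240), Nfe2l2 (176 and 124) and Hspa1b (22 and 9, with 63.6% of the control UMIs in 1 cell). Hspa1b stood at 7 and 7 UMIs among S100- and collagen-low members and Arrdc3, at 15 and 3, was no longer called, while Prr14, Lars2 and Nfe2l2 stayed lower.

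The 5 scratch-positive members are described only. Their globin was 3.46%, 1.87%, 4.001%, 42.1% and 2.13% of 23667, 16379, 22418, 11518 and 7287 UMIs. The fourth stood apart: it had 2291 UMIs of S100a8 plus S100a9 per 10000, 0.868 of Rhd plus Klf1, 0 of Car1 and 1185 genes. The other 4 had Rhd plus Klf1 between 9.77 and 12.4 UMIs per 10000, within the range of the members of both other libraries. A sixth barcode passed the globin limit with 142 UMIs per 10000 but failed on Car2 with 2.34. The higher Bpgm level of this group over control and scratch-negative rests on 26 UMIs, of which 100% came from 1 cell.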

How the data were processed

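Cells of 3 calvarial libraries, 1 per group, were profiled by 10x Genomics 3′ single-cell RNA sequencing. The deposited values are raw UMI counts per gene and barcode for 31053 genes. Per the file headers, Cell Ranger 6.1.2 produced them, and the submitters' processing notes name the mm10 build. Depth, and with it the precision of every value, is given by UMI counts, and intervals are exact Poisson (levels), Clopper-Pearson (shares) and conditional binomial (ratios) intervals at 95%, for counting error only. A value of 0 was given a limit of 3 UMIs or 3 cells.

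Barcodes with at least 500 genes and at most 10% mitochondrial UMIs were kept, and members were taken from these by the globin, Car2 and Ctsk limits. The members and gene lists were chosen with earlier results of these data known. No doublets were removed beyond the member rule. Scrublet (scanpy 1.11.5) at its own threshold marked 1, 0 and 581 barcodes (0.0152%, 0% and 6.38%), which is no working call in the first and second library. Its highest scores, 0.8% per 1000 barcodes, were left out as an alternative.

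UMIs were summed over members per library and scaled to 1000000 non-globin UMIs (globins: all UMIs). Log2 ratios had 0.5 UMI added. Apart from list genes, the named genes were the 10 called higher and 10 called lower with the interval bound farthest from 1, found in at least 10% of members of the higher library and at or above the level of its other barcodes. The 5 farthest each way that failed only the last condition are named apart. Results for some genes are not reported here. The 15 leading genes have the highest ratio over other control barcodes among genes found in at least 50% of members. Alternatives changed the gene and mitochondrial limits, globin and Car2 limits, doublets, denominator, UMI minimum, scaling, weighting and subtraction of free RNA. The calculation was run on simulated sums with known ratios, drawn with counting error alone. These held no spread between cells, so they cannot show how that spread affects the calls. Tools were scipy 1.17.1, pandas 2.3.3, numpy 2.4.6 and matplotlib 3.10.9 in Python 3.11.15. Promoters are from RefSeq, GRCm38.p6.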

Additional observations from a re-analysis of the deposited data

How the results depend on the processing

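With 1 library per group, differences between mice, preparation and group cannot be told apart, and scratch-positive has too few members for comparison. No paired analysis was possible because each group had 1 library and the labels carry no replicate numbers. The cause of the shifts below was not tested.

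The share of members was 1.39% in control with a 200-gene minimum. With Hbb-bs and Hba-a1 at 500 per 10000 it was 0.258%, 0.270% and 0.0110% in control, scratch-negative and scratch-positive, the median globin was 9.76%, 10.8% and 42.1%, and members under 10% globin were 52.9%, 36.4% and 0%. Over barcodes without Ptprc the shares were 7.04% and 3.82% in control and scratch-negative. Scratch-positive members were 100% under 10% globin when 2 of Car1, Rhd and Klf1 were required, without the members highest in S100a8 and S100a9, and among S100- and collagen-low members. Genes higher in scratch-negative numbered 141 at the limit of 500, 196 with Car2 at 10, 200 without high doublet scores, 127 without the members highest in S100, 697 with equal weight of globin stages, 191 after subtraction of free RNA, 161 with 100 UMIs and 113 among S100- and collagen-low members. Lower genes numbered 151, 740 and 120 at the limit of 500, with equal weight of stages and with 100 UMIs, and 1111 as means of per-cell proportions. The median log2 ratio of heme genes was 0.34 at the limit of 500, where that of interferon genes was −0.46 and that of glycolysis genes −0.57. The glycolysis median was 0.12 with Car2 at 10, 0.12 without high doublet scores, −0.019 without the members highest in S100, 0.24 with equal weight of stages, 0.17 after subtraction, 0.11 per cell, 0.031 among S100- and collagen-low members and 0.11 over all Rhd and Klf1 barcodes. Tsc22d1 was at −0.042 over those barcodes, Timp1 and Cd74 at 0.00 after subtraction, Lars2 at 0.16 and Hspa1b at 0.58 at the limit of 500, and Hspa1b at 0.027 without the members highest in S100 and at 0.030 among S100- and collagen-low members. The S100- and collagen-low members, the Rhd and Klf1 barcodes and the narrower globin ranges were chosen after seeing the data.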
